A study of Colocasia esculenta with 4 samples.

Results

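The 100 most abundant genes of the taro shoot apex were taken as the genes with the highest mean RPKM over 4 libraries, 100 of 28695 annotated genes. RPKM is the number of reads counted on a gene divided by the length of its exon sequence and by the size of the library, so that genes of different length can be set side by side. These values chose the genes, and their height is therefore a description. All 100 passed a floor of 1 CPM (count scaled by the library total) in every library, as did 9811 genes in all. The next 900 genes in the order, down to rank 1000, served for comparison.

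The tissue came from taro (Colocasia esculenta), cultivar Bing Liang in the sample labels and Bin Liang in the growth protocol. Per the labels, apical meristems were cut from the upper corm together with leaf primordia and very young leaves, and polyadenylated RNA was made into 4 stranded libraries. The libraries are replicates 1 to 4 of a single group, for which the labels give no treatment, and separate plants are not stated, so the spread between them may be technical. The libraries held between 22252534 and 25434148 counts. Replicate 4 differed most from the others, and values without it are given where they matter. Gene levels were summed over the transcripts of a gene, so single transcripts were not told apart.

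The shoot apical meristem is the small group of dividing cells that forms leaves and stem, and the youngest leaves around it are still growing. In growing plant tissue much of the messenger RNA comes from few genes, many of them for the ribosome, the cytoskeleton and chromatin. By its title the series concerns profilin, a small actin-binding protein, and raphides, which are needle-like crystals in taro tissue. No file gives a name or product for an identifier. The genes are therefore described by identifier, level, structure and place, without roles, and the tissue label was not checked against marker genes.

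A small part of the annotation held a large part of the reads. The 100 genes took 14.6%, 15.0%, 14.8% and 15.0% of counts in replicates 1 to 4, a mean of 14.8% ± 0.172 (SD, n = 4). The next 900 genes held 32.1% ± 0.506. The 100 genes held 20.6% ± 0.210 of the summed RPKM of all genes. The choice by RPKM favours this share over the share of counts. When 100 genes were chosen by mean count instead, they held 17.5% of counts.

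Abundance was also uneven among the 100. The mean levels ran from 625.7 to 8065 RPKM with a median of 929 RPKM. Of the 100 genes, 46 averaged more than 1000 RPKM and 11 more than 2000 RPKM. The 20 most counted held at least 50% of the counts of all 100. The 4 genes of highest RPKM alone held 2.11% ± 0.0983 of all counts and the 10 highest 4.63% ± 0.0809 (SD, n = 4).

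**Figure D1:**
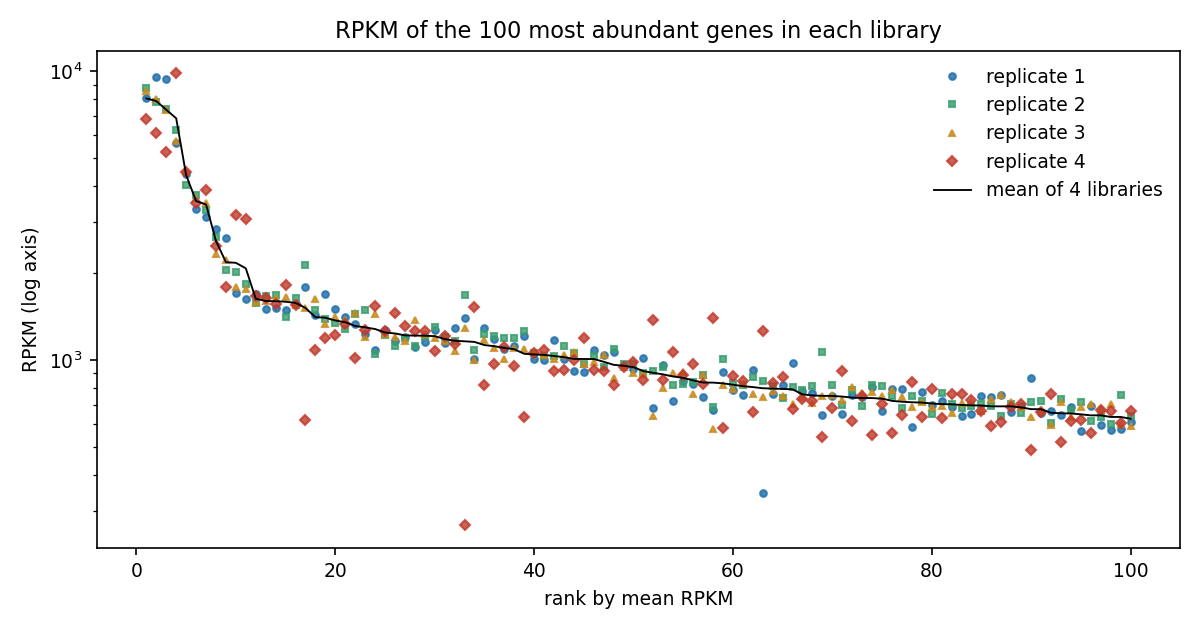
RPKM on a log axis of the 100 most abundant genes in replicates 1 to 4 (coloured points), ordered by the mean of the 4 libraries (black line). The means fall steeply over the first 11 genes, which exceed 2000 RPKM, and slowly from there to 625.7 RPKM.

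The 4 highest genes held the first 4 places in every library, but their order among themselves was not the same in all. EVM0013189 (LG03, 3108603 to 3110316, 2 exons) had 8106, 8792, 8532 and 6832 RPKM in replicates 1 to 4. EVM0022944 (Contig10797, 1601 to 2793, 7 exons) had 9606, 7806, 8043 and 6122 RPKM. EVM0006662 (LG07, 86480490 to 86482588, 7 exons) had 9442, 7393, 7367 and 5277 RPKM. These first 3 were each lowest in replicate 4. EVM0015590 (LG07, 87317439 to 87318258, 2 exons) went the other way, with 5672, 6265, 5725 and 9852 RPKM. It was the fourth gene of replicates 1, 2 and 3 and the first of replicate 4. In RNA from a whole dissected apex, fewer cells of a kind and less RNA per cell cannot be told apart.

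The next genes kept steadier levels. EVM0015392 (LG11, 116874357 to 116875870, 3 exons) had 4411, 4056, 4533 and 4479 RPKM and was the fifth gene of every library. EVM0022295 (unplaced contig, 154106 to 157373, 5 exons) had 3347, 3734, 3628 and 3507 RPKM. EVM0013553 (LG03, 182625652 to 182629516, 4 exons) had 3122, 3311, 3509 and 3896 RPKM. With 2564 bp of exon sequence it was long for so high a level, and it was the second most counted gene of all. EVM0001625 (LG07, 91193670 to 91194463) was the highest gene of a single exon, with 2850, 2674, 2338 and 2479 RPKM.

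EVM0000085 (unplaced contig, 1020389 to 1021494, 2 exons) had 2657, 2056, 2225 and 1791 RPKM and was lowest in replicate 4. EVM0025511 (LG11, 12356084 to 12358713, 6 exons) had 1710.5, 2010, 1785 and 3179 RPKM. EVM0008650 (unplaced contig, 1200961 to 1201878, 1 exon) had 1627, 1835, 1760 and 3089 RPKM. These last genes were highest in replicate 4, as EVM0015590 was. The third highest gene of 1 exon, EVM0009033 (LG03, 3207391 to 3208191), had 1436, 1485, 1626 and 1083 RPKM.

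The limit of 100 fell in a dense stretch of values. EVM0002671 and EVM0000918, ranked 99 and 100, averaged 634.3 and 625.7 RPKM. The next in order, EVM0014036 and EVM0021266, averaged 623.8 and 619.8 RPKM. The SD of these genes over the libraries was between 24.5 and 84.0 RPKM, larger than the steps between them, so membership at the limit was not resolved.

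The 100 genes were short. Their median exon length was 1006 bp, against 1344.5 bp for the next 900 genes and 1518 bp for all 9811 genes of at least 1 CPM. Of the 100 genes, 18 had under 500 bp, against 8.78% of the next 900 genes and 6.80% of the 9811 genes. Only 9 exceeded 2000 bp, against 22.3% of the next 900 genes and 31.3% of the 9811 genes. Length is the divisor of RPKM, so it took part in the choice. Chosen by count instead, the 100 genes had a median exon length of 1821.5 bp, and 61 genes were in both sets.

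Exon number, which the choice did not use directly, differed less. The median was 4 exons, against 5 for the next 900 genes and 4 for the 9811 genes. Genes of 1 exon made up 15.0% of the 100, against 7.11% of the next 900 genes and 12.3% of the 9811 genes. Genes of more than 10 exons numbered 7 of the 100, against 13.2% and 13.7%. Exon number goes with length, and chosen by count the 100 genes had a median of 6 exons. The genomic span was shorter too, with a median of 3468 bp, against 4865 bp for the next 900 genes and 4389 bp for the 9811 genes. Among genes with introns, the mean intron of a gene had a median of 561 bp in 85 of the 100. That median was 833 bp in 836 genes of the next 900 genes and 723 bp in 8602 of the 9811 genes.

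**Figure D2:**
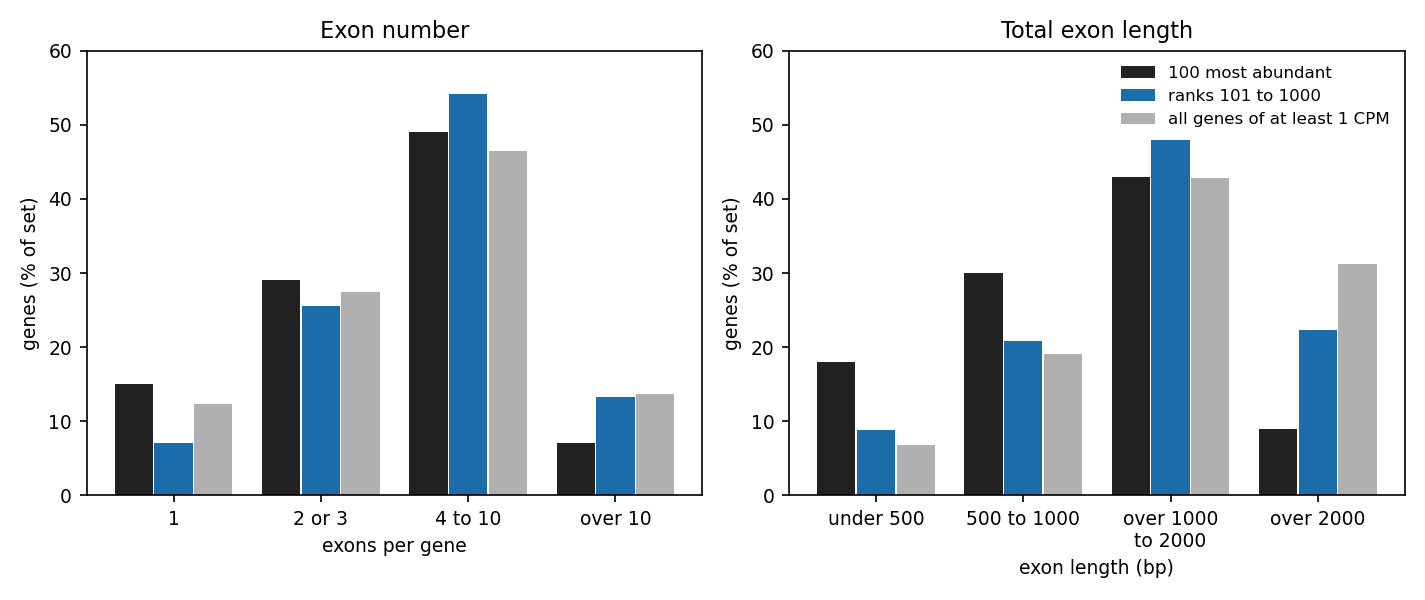
Share of genes by exon number (left) and total exon length (right) for the 100 most abundant genes (black), the next 900 genes (blue) and all genes of at least 1 CPM (grey). The 100 genes have the largest share under 500 bp (18.0%) and the smallest over 2000 bp (9 genes).

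The extremes of structure show how far level per kilobase and count can part. EVM0019005 had the shortest exon sequence, 153 bp in 3 exons spread over 31959 bp of LG03 (152639711 to 152671669). Its 2817, 3274, 2714 and 3308 counts gave 826, 841, 759 and 972 RPKM, which was rank 56 by RPKM and rank 2055 by count. EVM0012965 (LG11, 45299958 to 45300430) had 171 bp in 2 exons, and EVM0007061 (LG09, 116892909 to 116911261) had 345 bp in 4 exons over 18353 bp. For such short exon sequence a small change in the annotated length would move the RPKM by a large part.

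At the other end, EVM0004951 (LG05, 165257397 to 165263132) had 3805 bp in 9 exons. It had 1108, 1119, 1374 and 1257 RPKM and was the fourth most counted gene. EVM0001475 (Contig11044, 645 to 4947) had 3635 bp in 4 exons and 646, 732, 716 and 519 RPKM. EVM0021407 (Contig03850, 165269 to 172187) combined length and exon number, with 2960 bp in 16 exons and a level between 1146 and 1211 RPKM. More exons were found in EVM0017330 (Contig11524, 20 exons, 735 to 874 RPKM) and EVM0001995 (LG07, 21 exons, 570 to 705 RPKM).

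Of the 100 genes, 23 lay on unplaced contigs, against 18.8% of the next 900 genes and 21.5% of the 9811 genes. The others lay on LG03 (17), LG09 (15), LG07 and LG12 (12 each), LG11 (11), LG05 (9) and LG13 (1). Of the next 900 genes, LG03 held 14.2%, LG09 13.2%, LG07 14.8%, LG12 17.3%, LG11 10.3% and LG05 10.8%. Of the 9811 genes, LG03 held 12.6%, LG09 11.9%, LG07 14.4%, LG12 13.5%, LG11 12.0% and LG05 10.8%. The gene on LG13, EVM0006535 (48104269 to 48108358, 6 exons), is the only one on the 8 linkage groups in which fewer than 10% of genes reached 1 CPM, groups that carry 40.8% of the annotation. By that definition such genes are rare in any counted set, and they made up 0.556% of the next 900 genes and 3.26% of the 9811 genes.

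Placement near the ends varied between linkage groups. On LG03, 14 of 17 lay within 10 Mb of an end of the counted part of the linkage group, against 67 of 128 of the next 900 genes. The corresponding numbers were 7 of 9 against 47 of 97 on LG05 and 10 of 15 against 69 of 119 on LG09. They were lower on LG07 (3 of 12 against 36 of 133), LG11 (1 of 11 against 33 of 93) and LG12 (3 of 12 against 75 of 156). Over these 6 linkage groups 38 of 76 genes lay there, against 45.0% of 726 among the next 900 genes and 39.8% of 7386 genes of at least 1 CPM. The 10 Mb limit was chosen after the positions were seen and no test was made.

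Among the 100 genes, 2 pairs were next to each other in the annotation, against 92 pairs among the next 900 genes. A larger set holds more such pairs, so these numbers cannot be compared directly. EVM0007134 (182617058 to 182620755) and EVM0013553 lie 4896 bp apart on the plus strand of LG03. Both have 4 exons, with 2549 and 2564 bp, and share a run of exon lengths, 142 and 281 bp. EVM0007134 was much the lower, with 912, 1059, 1064 and 997 RPKM, and its counts were 29.0%, 31.8%, 30.2% and 25.4% of those of its neighbour. The other neighbours, EVM0023647 and EVM0015712 on LG09, lie 1219 bp apart on opposite strands, with 4 and 8 exons. They had 1497 to 1666 and 758 to 843 RPKM. A single member overlapped another annotated gene. This was EVM0010824, with EVM0001544 on the opposite strand. Overlaps were not counted for the next 900 genes.

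The libraries agreed on most of the 100 genes. In the library's own ranking, 93, 92, 94 and 90 of them were among the first 100 in replicates 1 to 4, and 78 were so in all. The first 100 of the libraries together comprised 125 genes. Of the first 50 genes, 49 were among the first 100 of all 4 libraries at once, and of the last 50 genes 29 were. Of the 22 that missed the first 100 somewhere, 7 did so in replicate 4 alone.

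The order within the 100 was close in replicates 1 to 3 and looser in replicate 4. Spearman's correlation of RPKM across the 100 genes was 0.914 for replicates 1 and 2, 0.928 for replicates 1 and 3, and 0.934 for replicates 2 and 3. With replicate 4 it was 0.674, 0.712 and 0.729. Across the next 900 genes it was 0.855 to 0.901 among the first 3 libraries and 0.641 to 0.674 with replicate 4. Genes are not independent replicates, and both ranges of level are narrow by choice.

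A library that took no part in the choice gives a measure free of it. When the 100 genes were chosen on 3 libraries, 91, 90, 92 and 87 of them were among the first 100 of the remaining library, for replicates 1 to 4 left aside in turn. At least 98 were among its first 200. Their share of counts in the remaining library was 14.7%, 15.1%, 14.8% and 15.0%. The median ratio of the level in that library to the mean of the others lay between 0.967 and 1.01.

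**Figure D3:**
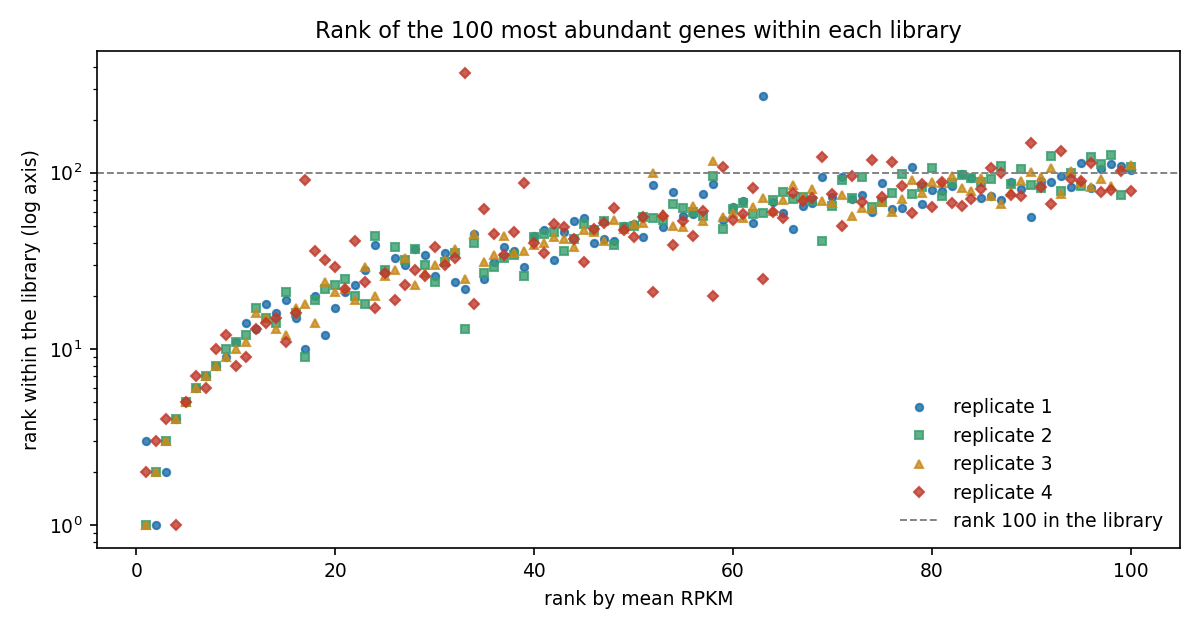
Rank within each library on a log axis (coloured points) against rank by mean RPKM for the 100 most abundant genes. Points above the dashed line are outside the first 100 of that library, the farthest being EVM0012965 at rank 366 in replicate 4 and EVM0020269 at rank 272 in replicate 1.

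Levels were steady between libraries for most of the 100 genes. The median coefficient of variation (SD over mean of the 4 RPKM values) was 8.95%, against 11.3% for the next 900 genes and 15.9% for the 9811 genes. It was 10.8% for the first 25 genes, and 7.98%, 8.72% and 8.54% for each next 25. Counting error alone would give a median of 0.662% in the 100 genes and 1.20% in the next 900 genes, well below the measured spread in both. Without replicate 4 the median was 5.58% in the 100 genes and 6.72% in the next 900 genes.

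A coefficient under 5% was found in 23 of the 100 genes, against 13.8% of the next 900 genes and 7.19% of the 9811 genes. The steadiest was EVM0012092 (Contig09122, 38805 to 43123, 4 exons), with 959, 967, 944 and 949 RPKM, a coefficient of 1.09%. EVM0000450 (LG09, 12941098 to 12943820, 4 exons) followed with 1267, 1218, 1235 and 1259 RPKM. EVM0027439 (LG09, 152830303 to 152833951, 5 exons) had 1010.4, 1053, 1062 and 1053 RPKM. In each of these genes the libraries lay within a few percent of each other. A coefficient of at least 20% was found in 14 of the 100 genes, against 225 of the next 900 genes and 38.1% of the 9811 genes.

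**Figure D4:**
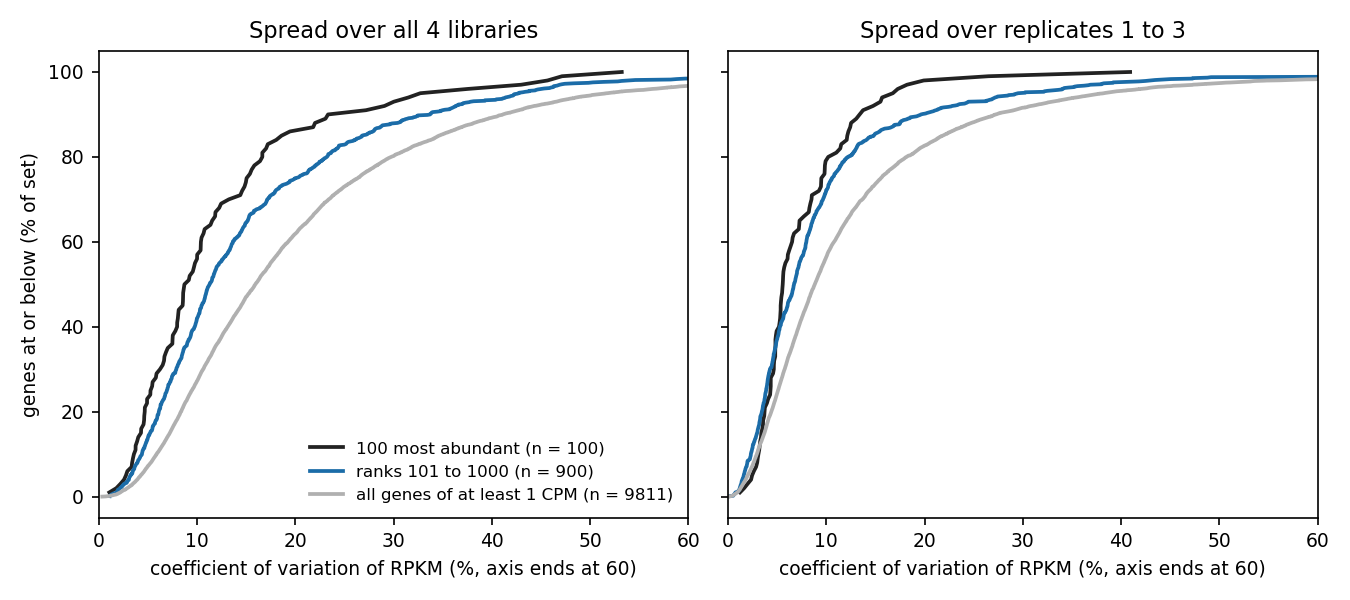
Cumulative share of genes by coefficient of variation of RPKM over all 4 libraries (left) and over replicates 1 to 3 (right), for the 100 most abundant genes (black), the next 900 genes (blue) and all genes of at least 1 CPM (grey). Medians over 4 libraries are 8.95%, 11.3% and 15.9%.

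In 4 of the 100 genes 1 library lay more than 2-fold from all others, against 6.63% of the 9811 genes and 4.33% of the next 900 genes. EVM0012965, of 171 bp, varied most, with 1400 RPKM in replicate 1, 1681 in replicate 2, 1294 in replicate 3 and 267 in replicate 4. EVM0006535, the gene on LG13, had 1787, 2139, 1514 and 617 RPKM. Both were low in replicate 4 alone. EVM0025806 (LG11, 36870908 to 36871342, 1 exon) was high there, with 673, 689, 576 and 1401 RPKM. EVM0020269 (LG07, 83148788 to 83149910, 1 exon) was low in replicate 1, with 345 RPKM, and had 844, 742 and 1261 RPKM in replicates 2 to 4. Replicate 4 lay more than 2-fold above the others in 1 of the 100 genes, against 1.79% of the 9811 genes, and below in 2, against 3.28%.

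Replicate 4 was more often an extreme than any other library. It was the lowest in 40 of the 100 genes and the highest in 32, against 43.6% and 36.6% of the next 900 genes. In the 9811 genes the order was reversed, with replicate 4 lowest in 37.5% and highest in 42.1%. The SD of its log2 ratio to the mean of the other libraries was 0.45 across the 100 genes, against 0.26, 0.19 and 0.16 for replicates 1 to 3. For replicate 4 this SD was 0.52 in the next 900 genes and 0.68 in the 9811 genes, also the largest of the libraries there. By exon number, replicate 4 was lowest in 8 of 15 genes of 1 exon, in 17 of 29 genes of 2 or 3 exons and in 15 of 56 genes of 4 or more. In the next 900 genes it was lowest in 33 of 64, 115 of 230 and 244 of 606 genes of these classes. In the 9811 genes the shares were 43.8%, 42.4% and 33.9%. By length, replicate 4 was lowest in 12 of 18 genes under 500 bp and in 28 of 82 longer genes. The larger sets did not show that order, with 39.2% under 500 bp against 44.0% of longer genes in the next 900 genes, and 32.7% against 37.8% in the 9811 genes. These splits were chosen after the values were seen, and the part of structure in them was not tested.

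Because reads aligning to several places were counted at each place, per the file headers, near-identical genes may share counts. A pair was called near-equal with the same exon number, total exon length within 5% and counts within 10% in all 4 libraries. Among 4950 pairs of the 100 genes there was 1 such pair, and among 404550 pairs of the next 900 genes there were 20. Counting partners anywhere among the 9811 genes, 3 of the 100 genes had one, against 4.56% of the next 900 genes and 6.0% of the 9811 genes.

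The pair was EVM0009364 (Contig05830, 34684 to 35642) and EVM0015163 (Contig09198, 13090 to 14049). Both have exons of 370 and 29 bp in that order, and their spans of 959 and 960 bp differ by a single base. EVM0009364 had 10510, 12302, 10286 and 8586 counts, and EVM0015163 had 9934, 12090, 10238 and 8457. The second gene had 94.5%, 98.3%, 99.5% and 98.5% of the counts of the first. Leaving it out lowered the share of the 100 genes only to 14.8049% of counts, against 14.8483% with it.

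The remaining gene with a near-equal partner lay at the edge of the 100. EVM0002671 (Contig05867, 22810 to 27977, rank 99) had 5617, 8453, 6128 and 5892 counts. Its partner EVM0019097 (Contig05419, 31019 to 36203, rank 109) had 5209, 8094, 5699 and 5505 counts. Both have exons of 125, 26, 69, 89 and 129 bp, and both were highest in replicate 2. Genes with more than 1 exon that had a partner of the same exon lengths and matching counts numbered 3 of 85, against 0.957% of the next 900 genes and 0.651% of 8602 genes of at least 1 CPM. All 3 lie on unplaced contigs, as does the partner outside the 100.

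Likeness of structure was also sought in parts of genes, after the pairs above had been seen. A run of at least 3 consecutive exon and intron lengths was shared with some other annotated gene by 11 of the 100 genes, against 16.1% of the next 900 genes and 13.7% of the 9811 genes. Genes of 1 exon cannot hold such a run. Those that can numbered 85 of the 100, 836 of the next 900 and 8602 of the 9811 genes, so the shares are not on equal terms. A group of 4 genes was linked by such runs. EVM0028602 (LG03, 183249920 to 183253601) and EVM0015955 (Contig14340, 59692 to 63373) both have 8 exons and the same span of 3682 bp. EVM0007155 (LG03, 183080459 to 183084832) and EVM0025800 (Contig10187, rank 316) have 6 exons, and all 11 of their exon and intron lengths are equal, over a span of 4374 bp.

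Equal exon lengths did not always go with equal counts. EVM0007155 had 18381, 18692, 19694 and 14837 counts. EVM0025800 had 8807, 7902, 9710 and 6590 counts, which was 47.9%, 42.3%, 49.3% and 44.4% of those. The same held for EVM0013243 (rank 78, LG12) and EVM0019004 on the same linkage group, both with exons of 336 and 174 bp. Their spans of 6083 and 1438 bp differ, so their introns are not of equal length. EVM0013243 had 6635, 9719, 8152 and 9494 counts, and EVM0019004 had 7, 4, 6 and 1. EVM0028602, which shares only part of its structure with EVM0007155, had 20199, 19732, 19833 and 16377 counts. The counts of EVM0007155 were 91.0%, 94.7%, 99.3% and 90.6% of these, and each of the 4 linked genes was lowest in replicate 4.

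In another pair the match was of internal exons only. EVM0013376 (LG03, 181745319 to 181750675, 5 exons) and EVM0013485 (LG09, 152416612 to 152424960, 6 exons) share consecutive exons of 78, 181 and 98 bp. They had 20531, 24998, 23648 and 22965 counts and 21654, 26435, 24615 and 22465 counts. The counts lay within 10% of each other in all libraries, although the exon numbers differ. EVM0022944 and EVM0006662, ranked 2 and 3, have 7 exons each and similar counts. They share no run of more than 1 equal exon length, the single match being an exon of 111 bp. In order, the exons of EVM0022944 have 50, 111, 58, 45, 81, 93 and 18 bp. Those of EVM0006662 have 47, 111, 62, 44, 91, 82 and 37 bp, so several lengths are close without being equal.

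The longest run was that of EVM0017330, the gene of 20 exons. It shares 16 consecutive exon and intron lengths with EVM0013659 and 8 with EVM0012253, both of 20 exons on LG06, a linkage group with few counted genes. EVM0017330 had 38106, 39161, 36631 and 40724 counts. EVM0013659 had 0 counts in every library and EVM0012253 had 47, 46, 49 and 51. At 0 counts EVM0013659 shared no counted read with EVM0017330, and EVM0019004 shared at most its 7, 4, 6 and 1 with EVM0013243. For the pairs with high counts in both genes no sequences were compared, and sharing of reads was not tested.

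**Figure D5:**
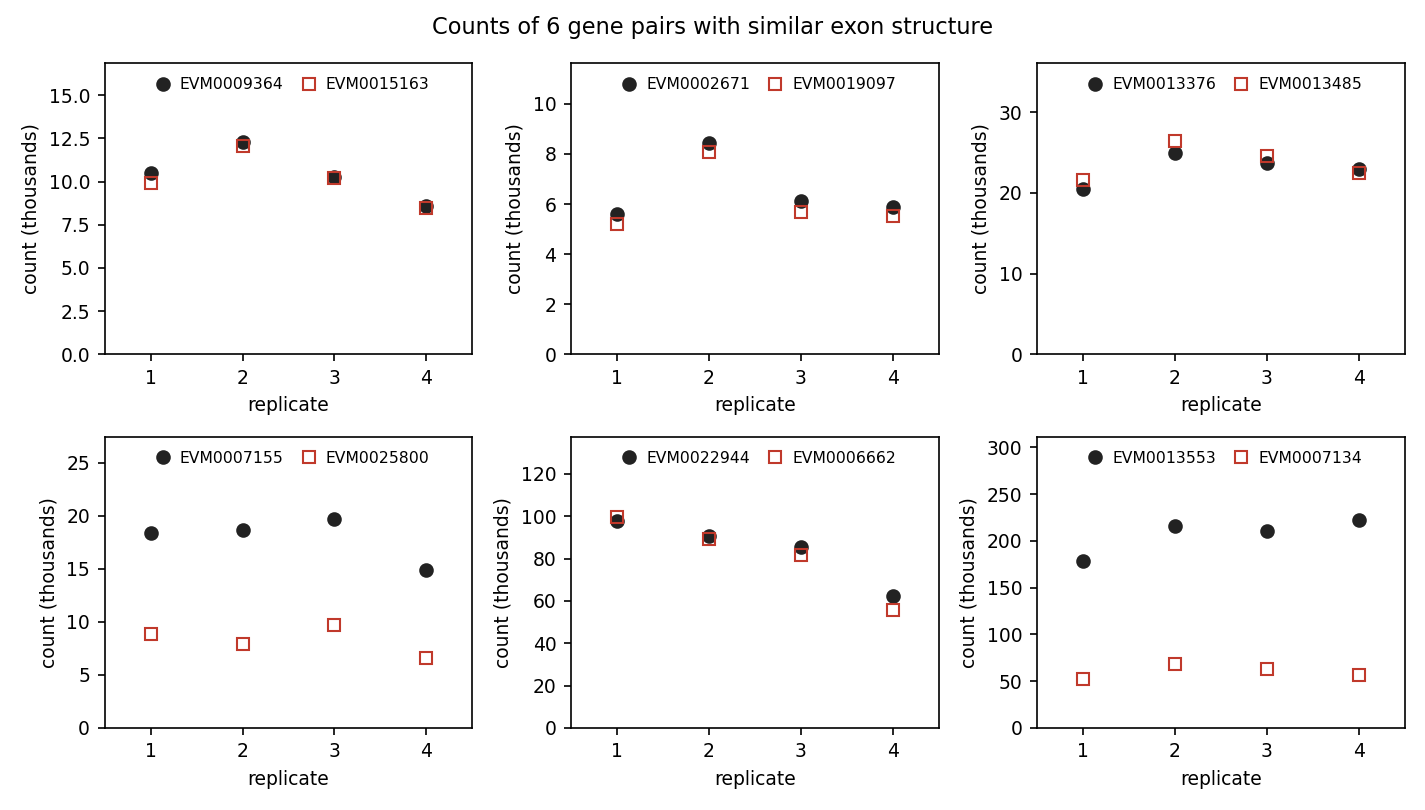
Read counts (axis in units of 1000) in replicates 1 to 4 for 6 gene pairs of similar structure, with the gene of higher mean RPKM as a filled circle and its partner as an open square. Counts nearly coincide for EVM0009364 and EVM0015163, and EVM0025800 lies at 42.3% to 49.3% of EVM0007155 although all exon and intron lengths are equal.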

How the data were processed

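The authors deposited whole read counts per gene for each library, made with featureCounts 2.0.0, per the file headers. Reads were assigned to exons on the reverse strand and summed per gene, and reads aligned to several places were counted at each. Coordinates are 1-based on the taro assembly of the count files, scaffolded with Lachesis, for which no build name is stated. Trimming with Trimmomatic 0.36 and alignment with HISAT2 2.0.5 are listed in the submitters' processing notes. The authors also deposited RPKM values. Recomputed here from the counts, all 28695 were the same within 1e-06.

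Members are the 100 genes of highest mean deposited RPKM. The members, lists and rules were chosen with earlier results of these data known. Overlapping exons of a gene were merged. CPM, coefficients of variation, ranks and pairs were computed in Python 3.11.15 with pandas 2.3.3. TMM factors came from edgeR 4.0.16 and median-ratio size factors from DESeq2 1.42.0 in R 4.3.3. The code for pairs and for a library apart was run on simulated data with planted cases inside the limits of the rules. That run checks the code and does not measure false calls in the real data. With a single group there was no comparison between conditions and no test of one, and all values are descriptions. Dixon's rule for outliers served only to flag values for a closer look. The depth of 22252534 to 25434148 counts leaves little counting error at these levels. Genes were named by fixed rules: the 10 highest, the 3 most and least variable, the 3 longest, shortest, richest in exons, highest of 1 exon and highest on contigs, genes apart in a library, neighbours, near-equal pairs and the edge of the 100. EVM0010824, EVM0001544 and the genes named for shared runs of exon or intron lengths were chosen after their values were seen.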

Additional observations from a re-analysis of the deposited data

Results flagged for a closer look

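Over the 4 libraries, 41 values were compared, 6 of them summaries and 35 the RPKM of named genes, and in 5 of them 1 library lay far from the other 3. Chance gives about 1 in 20 independent values, but some of these genes were named for their high or low spread, so the 5 cannot be set against that rate. By Dixon's rule 8 of the 100 genes in all had an outlying library, against 12.3% of the 9811 genes of at least 1 CPM. In 3 of the 5 the library was replicate 4, above the others. EVM0015590 had 9852 RPKM there, against 5672 to 6265 in replicates 1 to 3. EVM0008650 had 3089.3 RPKM, against 1627 to 1835. EVM0025806 had 1401.2 RPKM, against 576 to 689. EVM0002671, at the edge of the 100, had 758.8 RPKM in replicate 2, against 575 to 605 in the other libraries. EVM0027439 had 1010.4 RPKM in replicate 1, against 1053 to 1062, a gap that is large only because the other libraries were so close.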

How the results depend on the processing

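Of 87 alternatives over 9 results, 54 left the value within the spread over libraries or within 1.5 times the count, and 33 moved it. For exon length and number that spread was the SD over genes chosen in each single library. For the coefficient of variation it was the SD of the values with each library left out. That limit was thus made from some of the values it judged. Each library was left out in turn and the genes were chosen again. The share of counts was then 14.9% to 15.1% and the median exon length 1006 to 1083.5 bp. The median coefficient of variation was 5.58% to 10.3% (5.58% without replicate 4). Genes with a library apart numbered 1 to 6 (1 without replicate 4). Near-equal pairs numbered 1 to 3 (3 without replicate 1, 2 without replicate 3, 3 without replicate 4). The rules for a library apart and for pairs were then easier to meet, since fewer libraries had to differ or match. Chosen by mean count, the genes held 17.5% of counts with a median of 1821.5 bp and 6 exons, 50 were in the first 100 by RPKM of every library and 0 pairs were near-equal. Chosen by median RPKM they held 15.1%. The highest 50 held 10.5%, with a median of 935.5 bp, 11 genes on contigs, 40 in the first 50 of every library and 2 with a library apart. The highest 200 held 21.3%, with 1074 bp, 43 on contigs, 159 in the first 200 of every library, 8 with a library apart and 6 near-equal pairs. Set sizes fix much of this. Genes with a library apart numbered 9 at 1.5-fold and 1 at 3-fold, and near-equal pairs 0 within 5% of counts and 7 within 20%. The other alternatives, TMM and median-ratio scaling included, stayed within those limits. Pairs sharing 3 exon lengths, a result added after the data were seen, numbered 2, against 8 by mean count, 0 in the highest 50 and 22 in the highest 200. At a floor of 10 CPM or none, 3.95% and 23.1% of genes had a library apart. The cause of these changes was not tested. No paired analysis was possible because all libraries form 1 group. Counting error is small beside the spread of the 100 genes, at a median of 0.662%, but reaches 20.2% among the 9811 genes. Depth was not varied. Reads counted at several places make the levels of genes with like partners uncertain.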
